A study of Homo sapiens with 6 samples.

Results

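Mitosis and G2/M genes work mainly as a cell leaves DNA replication and divides its chromosomes, and many of their transcripts build up then. The 50 genes described here were chosen by symbol, taking the row with the highest mean where a symbol stood on several rows, out of 58884 rows of the matrix. All 50 were found, each on 1 row, and all 50 were among the 16701 genes that entered the test, whose mean was 10 normalized counts or more. KYSE450 is an established human esophageal squamous cell carcinoma (ESCC) line with wild-type NRF2, and KEAP1null-KYSE450 is a single monoclonal line derived from it by CRISPR-Cas9 with a guide to exon 2 of KEAP1. Bulk RNA of both lines was sequenced, with 3 libraries of KYSE450 and 3 of KEAP1null-KYSE450, from untreated cells kept in RPMI1640 with 10% fetal bovine serum. The columns of the matrix name the line and no replicate, so libraries 1, 2 and 3 are named by their order within a line, and values below are given in that order. Summed normalized counts lay between 54829313 and 57380170 per library. Because KEAP1null-KYSE450 is 1 clone, differences of the clone other than the loss of KEAP1 cannot be told apart from that loss. Nothing says that the libraries of a line came from separate cultures, so p-values measure only the spread between these libraries, which may be technical.

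Entry into mitosis is driven by CDK1 bound to cyclins, and its transcripts are switched on late in the cycle by the transcription factors B-Myb and FOXM1 together with the MuvB complex. Kinetochore proteins then tie chromosomes to the spindle, the spindle assembly checkpoint holds the anaphase-promoting complex (APC/C) until every chromosome is attached, and separase cuts cohesin to let sister chromatids part. Squamous carcinoma cells in culture cycle continuously, and a bulk level of these transcripts reflects both how many cells are in G2 or M and how much of each transcript such a cell holds.

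The targeted gene was read first. KEAP1, the adaptor that delivers NRF2 for degradation, had 5760, 5226 and 5146 normalized counts in KYSE450 and 5737, 4906 and 5317 in KEAP1null-KYSE450. The lines overlapped, with a log2 fold change of -0.02 (standard error 0.10; limma, adjusted p = 0.9), and a count per gene does not show whether the transcripts carry the edit. NQO1, a quinone reductase that NRF2 induces, had 15681, 17100 and 17093 normalized counts in KYSE450 and 104116, 108806 and 110351 in KEAP1null-KYSE450. Every KEAP1null-KYSE450 library stood above every KYSE450 library, and NQO1 rose by 2.70 on the log2 scale (standard error 0.10; limma, adjusted p = 3.94e-10).

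Both lines carried squamous epithelial transcripts. All 10 squamous markers passed the filter, and their summed level was 520893, 439227 and 397029 normalized counts in KYSE450 and 755398, 624120 and 607107 in KEAP1null-KYSE450, with KRT5 the most abundant. The markers moved between the lines: 2 rose and 7 fell (limma with Benjamini-Hochberg adjustment, adjusted p under 0.05). That is 20% higher and 70% lower, where 24.3% and 25.5% of all tested genes were. KRT5, a basal keratin, had 250359, 199564 and 174377 normalized counts in KYSE450 and 648677, 536519 and 519548 in KEAP1null-KYSE450. KRT14, its usual partner, had 2699, 2368 and 2136 in KYSE450 and 30.4, 41.8 and 31.3 in KEAP1null-KYSE450. KRT6A fell by 4.70 on the log2 scale, and KRT17 fell by 4.85. The transcription factor SOX2 fell by 1.00. DSG3, a desmosomal cadherin, rose by 0.41 (limma, adjusted p = 0.0446), a call lost in 7 of 15 other settings, among them those without KYSE450 library 2 or 3 or without KEAP1null-KYSE450 library 1 or 2, where the adjusted p lay between 0.0746 and 0.184. Whether this shift in keratin transcripts plays a part in the mitosis genes was not tested. Among the markers of other cell types, no leukocyte gene reached a mean of 10, with a summed level between 1.9 and 16.2 normalized counts per library and CD14 the most abundant. Among 6 fibroblast genes COL1A1 passed the filter and fell by 0.85, and the list summed to 854, 677 and 622 in KYSE450 and 349, 409 and 436 in KEAP1null-KYSE450. Endothelial genes summed to between 48 and 74.8 normalized counts per library. VWF was the most abundant of these 4, and PECAM1 was at 0 in every library. CDH5 had 10.7, 20.2 and 28.9 normalized counts in KYSE450 and 1.84, 3.06 and 1.01 in KEAP1null-KYSE450, so it passed the filter through KYSE450 alone, and its KEAP1null-KYSE450 values are worth 3 reads or fewer.

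The mitosis and G2/M genes were lower in KEAP1null-KYSE450. Of the 50 genes, 43 fell at an adjusted p under 0.05, where 25.5% of all tested genes did (limma on log2 of the normalized count plus 1, with Benjamini-Hochberg adjustment over all 16701 genes). None rose, against 24.3% of all tested genes, and at an unadjusted p under 0.05 limma gave 0 higher and 45 lower, where 27.6% of all tested genes were higher and 28.3% lower. edgeR, run on whole reads recovered for 4 libraries, gave 0 higher and 35 lower, beside 17.4% and 14.8% of all tested genes. DESeq2 on the same reads gave 0 higher and 39 lower, beside 15.7% and 16.4%. With a log2 fold change of -1 or less as well, 9 of the 50 fell, where 5.98% of all tested genes did, and 0 were higher, where 12.2% of all tested genes were. In 44 of the 50 genes all KEAP1null-KYSE450 libraries lay below all KYSE450 libraries, a pattern held by 29.3% of all tested genes. In none did all of them lie above, a pattern held by 28.4% of all tested genes.

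The median log2 fold change of the 50 genes was -0.64, from -1.19 for ANLN to 0.05 for BUB3, and the median over all tested genes was 0.00. Among the 11724 tested genes with a mean inside the range of the 50 genes, 129.9 to 39490 normalized counts, 32.3% fell, 21.6% rose, and the median was -0.09. Relative to the KYSE450 mean of each gene, the libraries of KEAP1null-KYSE450 had a median over the 50 genes of -0.61, -0.71 and -0.67, and those of KYSE450 of -0.02, -0.00 and 0.04. Counted together, the 50 genes took up 0.826%, 0.843% and 0.849% of all normalized counts in KYSE450. In KEAP1null-KYSE450 they took up 0.555%, 0.541% and 0.55%. Each KEAP1null-KYSE450 library was thus below each KYSE450 library in the summed level too. Fewer cells in G2 or M and less of these transcripts per cell cannot be told apart in bulk RNA.

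The 9 genes past both thresholds were ANLN, FOXM1, CDC25B, PLK1, MKI67, CENPE, TPX2, CDC20 and KIF2C, and NUF2 and MYBL2 lay just short of -1, both at -0.99. This count depends on scaling: after quantile normalization none of these 9 genes passed both thresholds. PRC1, whose level is uncertain because other genes overlap it, was then the 1 gene of the 50 to do so, at -1.01. The median of the 50 was then -0.48 beside -0.02 for all genes, and 38 still fell at an adjusted p under 0.05 (limma), where 23.5% of all genes did. The split of all genes past both thresholds moved with it, from 2045 higher and 999 lower (67.2% higher) to 1388 higher and 1289 lower (51.8% higher).

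**Figure D1:**
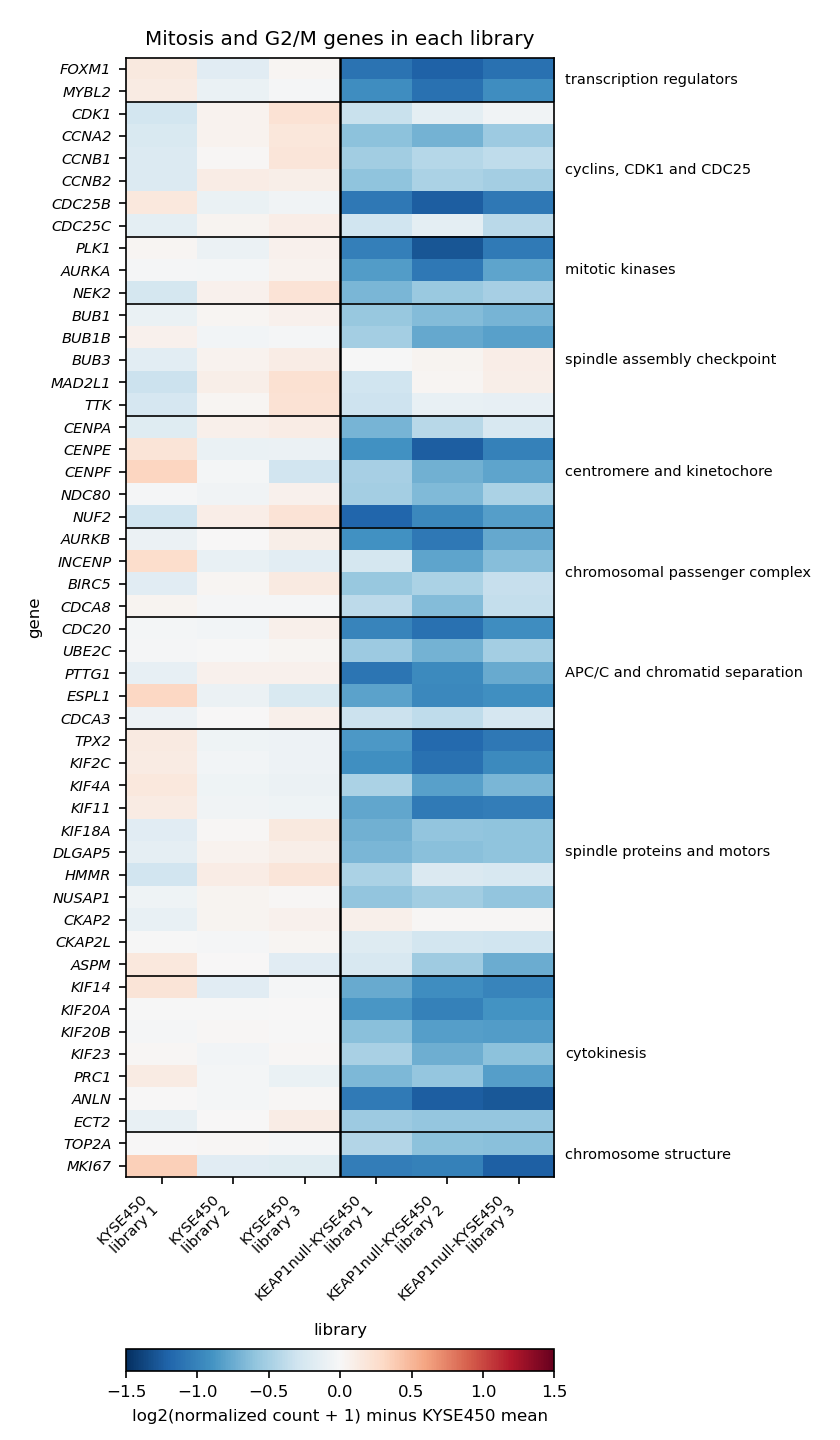
Each row is 1 of the 50 genes, grouped by role, and each column is a library. Color gives log2(normalized count + 1) minus the gene's KYSE450 mean, so blue is lower than KYSE450. The KEAP1null-KYSE450 columns are blue in nearly all rows, with CDK1, BUB3, MAD2L1, TTK, HMMR and CKAP2 overlapping between the lines.

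The promoters of these genes are described next, and whether they play a part in the fall was not tested. RefSeq promoter sequences (GRCh38.p14), 300 bases long from 250 bases before the start of the transcript to 50 after it, were at hand for 43 of the 50 genes. There was no entry for AURKA, BIRC5, BUB3, FOXM1, TPX2, TTK or UBE2C. Each window was searched on both strands for TTTGAA, the core of the cell cycle homology region, and for CCAAT, the box read by NF-Y. TTTGAA was found in at least 1 window of 31 of the 43 genes (72.1%), and in 18.2% of all 27305 genes with a promoter. CCAAT was found in 35 of the 43 (81.4%) and in 39.7% of all genes. Both motifs stood in the windows of 27 of the 43 genes (62.8%) and of 8.37% of all genes. Counted by window, 34 of the 53 windows of the 43 genes held TTTGAA (64.2%) and 40 held CCAAT (75.5%), where 15.2% and 34.6% of all 35116 windows did. A match is a run of letters, not a shown binding site.

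Genes with and without a match were both lower. The 31 genes with TTTGAA had a median log2 fold change of -0.61, with 27 of them called lower. The 12 genes without it had a median of -0.92, with 11 called lower, and the difference was not tested. Of all tested genes, 25.5% were called lower (limma). TTTGAA stood in 15.2% of all windows and 10.6% of the windows of tested genes, and its share in the other cell cycle lists is given without a test, since they hold few windows, between 15 and 55 each. It stood in 36.8% of the windows of mitotic entry genes, 35.5% of those of other spindle and cytokinesis genes, 34.8% for condensin and cohesin, 32.4% for other kinetochore genes and 32% for MuvB, RB and E2F. It stood in 16.7% of the windows of the APC/C list, 3.64% of those of DNA replication and 0% of those of the cyclin D list.

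Printed here are the first windows of the 6 genes with the largest falls among those with an entry, with TTTGAA and CCAAT on either strand in capitals (TTCAAA and ATTGG when read from the other strand). Position 0 is the first base of the transcript. The ANLN window is chr7:36389612-36389911 on the plus strand, with TTTGAA matches at -26 and -20 and no CCAAT. The CDC25B window, chr20:3786701-3787000 on the plus strand, is 1 of 4 listed for this gene and held neither motif. Some of the windows of CDC25B not printed held CCAAT, at -169 and -73 from their own starts, and none held TTTGAA. The PLK1 window, chr16:23678639-23678938 on the plus strand, held CCAAT at -73 and TTTGAA at -29. MKI67 is read from the minus strand at chr10:128126374-128126673, with TTTGAA at -47 and -29 and CCAAT at -98 and -24, the last of which shares letters with the TTTGAA match before it. The CENPE window, chr4:103198294-103198593 on the minus strand, held neither motif. The CDC20 window is chr1:43358731-43359030 on the plus strand, with TTTGAA at -178 and -65 and CCAAT at -100 and -55.
ANLN: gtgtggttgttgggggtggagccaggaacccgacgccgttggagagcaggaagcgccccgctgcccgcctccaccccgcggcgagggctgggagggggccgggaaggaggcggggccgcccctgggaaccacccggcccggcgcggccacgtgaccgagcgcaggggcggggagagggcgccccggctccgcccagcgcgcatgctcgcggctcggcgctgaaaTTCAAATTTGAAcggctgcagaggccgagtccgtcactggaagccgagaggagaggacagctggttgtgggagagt
CDC25B: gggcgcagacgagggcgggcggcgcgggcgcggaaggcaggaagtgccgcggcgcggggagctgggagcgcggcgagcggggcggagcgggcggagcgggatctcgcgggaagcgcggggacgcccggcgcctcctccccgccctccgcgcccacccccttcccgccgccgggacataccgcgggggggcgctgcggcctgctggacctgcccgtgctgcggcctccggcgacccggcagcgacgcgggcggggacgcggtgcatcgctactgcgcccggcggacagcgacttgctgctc
PLK1: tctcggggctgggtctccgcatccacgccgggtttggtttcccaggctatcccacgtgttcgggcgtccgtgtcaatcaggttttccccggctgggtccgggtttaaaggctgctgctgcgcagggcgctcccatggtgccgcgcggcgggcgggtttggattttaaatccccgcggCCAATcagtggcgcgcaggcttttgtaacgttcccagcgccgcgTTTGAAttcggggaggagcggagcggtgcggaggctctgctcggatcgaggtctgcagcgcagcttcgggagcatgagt
MKI67: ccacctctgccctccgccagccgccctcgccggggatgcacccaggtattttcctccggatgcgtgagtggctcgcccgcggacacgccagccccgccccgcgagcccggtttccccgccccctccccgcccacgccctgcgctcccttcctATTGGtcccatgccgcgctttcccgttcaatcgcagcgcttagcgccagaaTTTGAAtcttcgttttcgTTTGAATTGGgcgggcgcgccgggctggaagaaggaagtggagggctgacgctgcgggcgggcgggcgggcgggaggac
CENPE: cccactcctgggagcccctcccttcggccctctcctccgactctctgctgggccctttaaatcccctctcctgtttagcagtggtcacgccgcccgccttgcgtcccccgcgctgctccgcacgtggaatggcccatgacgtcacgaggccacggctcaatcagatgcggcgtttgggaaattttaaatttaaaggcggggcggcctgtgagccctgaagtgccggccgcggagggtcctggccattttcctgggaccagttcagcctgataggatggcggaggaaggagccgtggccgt
CDC20: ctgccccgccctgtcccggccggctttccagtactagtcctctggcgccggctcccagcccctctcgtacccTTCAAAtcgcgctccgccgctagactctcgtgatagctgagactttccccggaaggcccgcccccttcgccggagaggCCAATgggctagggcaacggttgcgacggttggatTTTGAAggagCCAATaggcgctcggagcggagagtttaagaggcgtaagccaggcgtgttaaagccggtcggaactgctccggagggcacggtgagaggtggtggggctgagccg

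Both transcription regulators among the 50 genes fell, where 25.5% of all tested genes did (limma). FOXM1, a forkhead factor that binds G2/M promoters, had 16551, 13244 and 15179 normalized counts in KYSE450 and 6945, 6460 and 6860 in KEAP1null-KYSE450. It fell by 1.14 on the log2 scale (standard error 0.10; limma, adjusted p = 1.88e-06), with the highest KEAP1null-KYSE450 library well below the lowest KYSE450 library. Exons of ITFG2 on the opposite strand cover 15.9% of the FOXM1 exon length, and the methods name no counting by strand, so reads of that stretch cannot be assigned. MYBL2 encodes B-Myb, which recruits FOXM1 to MuvB. Its counts were 12806, 10987 and 11597 in KYSE450 and 6183, 5420 and 6176 in KEAP1null-KYSE450. The groups did not overlap, and MYBL2 fell by 0.99 (standard error 0.10; limma, adjusted p = 5.02e-06).

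Of the 6 genes for CDK1, its cyclins and the CDC25 phosphatases, 4 fell and 2 did not pass the test (limma). That is 66.7% lower, beside 25.5% of all tested genes. CDC25B, the phosphatase that removes inhibitory phosphates from CDK1 at the centrosome, showed 8167, 6795 and 7021 normalized counts in KYSE450 and 3484, 3090 and 3481 in KEAP1null-KYSE450. All KEAP1null-KYSE450 libraries were lower, and it fell by 1.13 on the log2 scale (standard error 0.10; limma, adjusted p = 2.28e-06). Cyclin A2, which acts in S phase and early mitosis, is encoded by CCNA2, with counts of 5922, 7170 and 7801 in KYSE450 and 4508, 4221 and 4760 in KEAP1null-KYSE450. It fell by 0.62 (limma, adjusted p = 0.000541), and KYSE450 library 1 was the lowest of its line but above each KEAP1null-KYSE450 library. CCNB1, the main mitotic cyclin, had 22005, 25629 and 28650 in KYSE450 and 17582, 18865 and 19392 in KEAP1null-KYSE450. It fell by 0.44 on the log2 scale (limma, adjusted p = 0.00499), a call lost after quantile normalization (limma, adjusted p = 0.0927) and with edgeR on recovered reads (adjusted p = 0.0898). For CCNB2, the cyclin found at the Golgi, the values were 8455, 10489 and 10323 in KYSE450 and 6375, 6998 and 6820 in KEAP1null-KYSE450. CCNB2 fell by 0.53 (limma, adjusted p = 0.00105), without overlap between the lines, and edgeR on recovered reads gave an adjusted p of 0.0566. Its promoter window held CCAAT at -244, -120, -87 and -54 and TTTGAA at -29.

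CDK1 itself, the kinase that those cyclins activate, had 9315, 11686 and 13078 normalized counts in KYSE450 and 8932, 10158 and 10882 in KEAP1null-KYSE450. The lines overlapped, since KYSE450 library 1 lay below KEAP1null-KYSE450 libraries 2 and 3. The log2 fold change was -0.18 (standard error 0.13; limma, adjusted p = 0.264), and without KYSE450 library 1 it was -0.31 (limma, adjusted p = 0.0211). After quantile normalization its direction turned, to 0.02 (limma, adjusted p = 0.918). CDC25C had a log2 fold change of -0.29 (limma, adjusted p = 0.0591), and without KYSE450 library 1 it was -0.36 (limma, adjusted p = 0.0206). Its 3 KEAP1null-KYSE450 libraries still lay below all 3 of KYSE450.

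All 3 mitotic kinases of the group fell, beside 25.5% of all tested genes (limma). PLK1, which acts on centrosomes, kinetochores and the midbody, had 10030, 9204 and 10238 normalized counts in KYSE450 and 4830, 4037 and 4715 in KEAP1null-KYSE450. Every library of KEAP1null-KYSE450 was lower, and it fell by 1.12 on the log2 scale (standard error 0.10; limma, adjusted p = 1.95e-06). AURKA builds the spindle poles and activates PLK1. Its counts were 7157, 7069 and 7477 in KYSE450 and 4040, 3452 and 4167 in KEAP1null-KYSE450, so that the groups stood apart. It fell by 0.90 (standard error 0.10; limma, adjusted p = 1.10e-05). NEK2, which loosens the link between centrosomes, fell by 0.58 (limma, adjusted p = 0.0016).

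**Figure D2:**
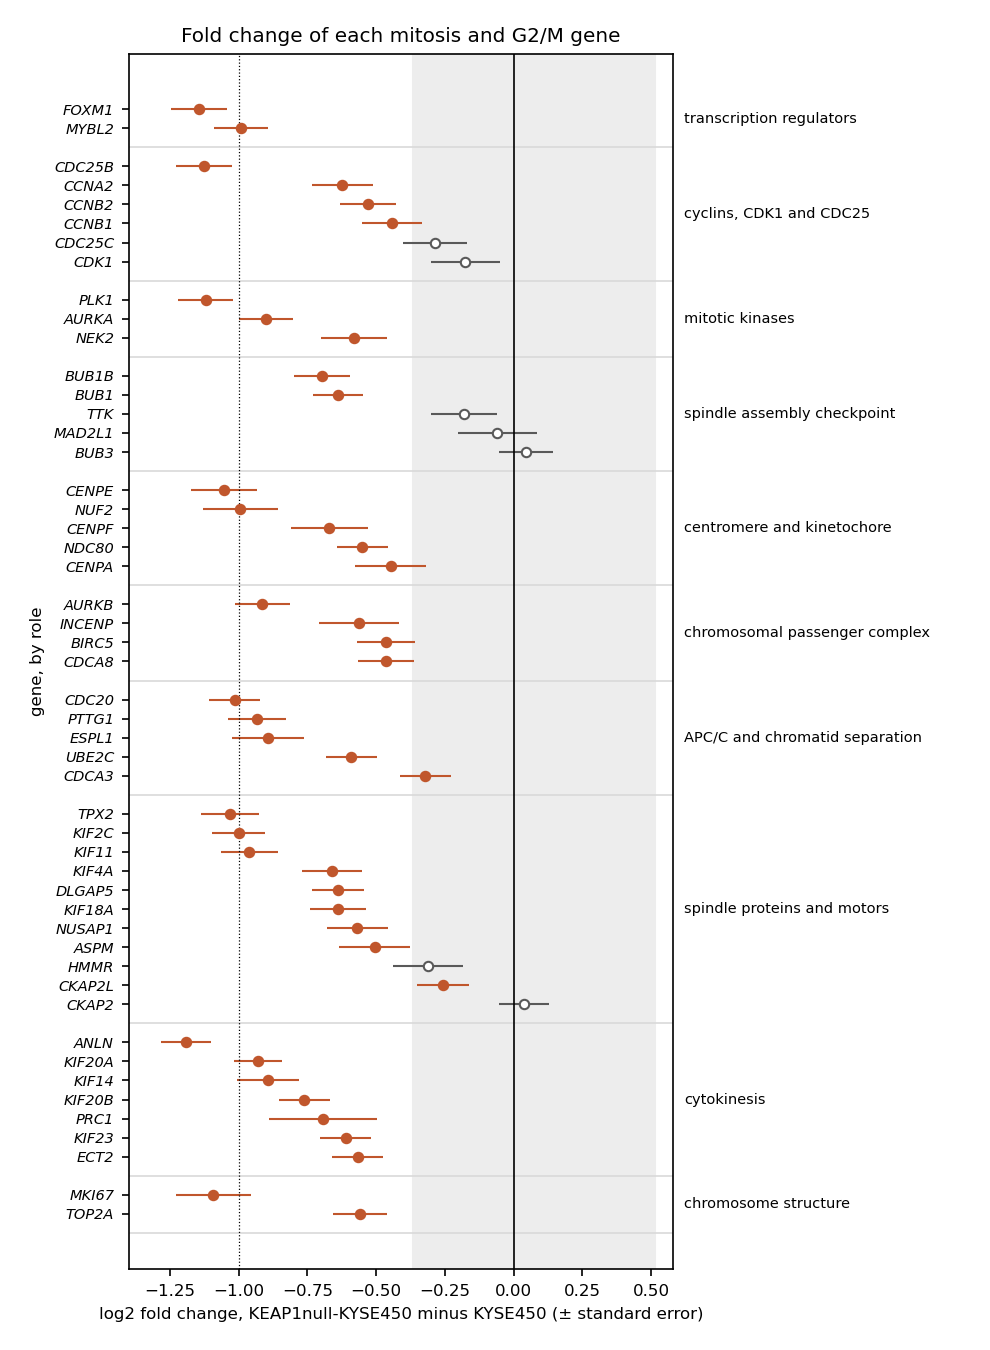
Points give the log2 fold change of each gene, KEAP1null-KYSE450 minus KYSE450, and bars its standard error from limma. Filled points passed an adjusted p of 0.05 and open points did not, the shaded band runs between the quartiles of all tested genes (-0.37 to 0.52), and the dotted line marks -1. The 43 filled points all lie below 0.

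Of the 5 spindle assembly checkpoint genes 2 fell (40%), where 25.5% of all tested genes did (limma). The median log2 fold change of the 5 was -0.18, and differences between roles were not tested. BUB1, a kinase that marks unattached kinetochores, had 16201, 17610 and 18158 normalized counts in KYSE450 and 11648, 10996 and 10703 in KEAP1null-KYSE450. It fell by 0.64 (standard error 0.09; limma, adjusted p = 0.000105), with no overlap. BUB1B, part of the complex that inhibits CDC20, fell by 0.70 (limma, adjusted p = 0.000128). TTK, the kinase that starts checkpoint signaling, had 5154, 6284 and 7146 in KYSE450 and 4947, 5702 and 5639 in KEAP1null-KYSE450. Those values overlapped, with KYSE450 library 1 below KEAP1null-KYSE450 libraries 2 and 3. The log2 fold change of TTK was -0.18 (limma, adjusted p = 0.23), and without KYSE450 library 1 it was -0.31 (limma, adjusted p = 0.0191). After quantile normalization it was -0.02 (limma, adjusted p = 0.925). The inhibitor MAD2L1 had a log2 fold change of -0.06 (limma, adjusted p = 0.754). BUB3, which carries BUB1 to kinetochores, had 11709, 13523 and 14126 in KYSE450 and 13005, 13461 and 14037 normalized counts in KEAP1null-KYSE450, with a log2 fold change of 0.05 (limma, adjusted p = 0.724). BUB3 and MAD2L1 were called in none of the 15 other settings, and their sign was not stable across them. BUB3 was at 0.24 after quantile normalization (limma, adjusted p = 0.0689).

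All 5 centromere and kinetochore genes fell, where 25.5% of all tested genes did (limma). CENPE, the motor that carries chromosomes to the metaphase plate, had 2891, 2374 and 2377 normalized counts in KYSE450 and 1347, 1078 and 1254 in KEAP1null-KYSE450. Its 3 KEAP1null-KYSE450 values were all lower, and it fell by 1.05 on the log2 scale (standard error 0.12; limma, adjusted p = 1.67e-05). CENPA, the histone H3 variant of centromeres, showed 2249, 2705 and 2755 in KYSE450 and 1582, 1919 and 2175 in KEAP1null-KYSE450. KEAP1null-KYSE450 library 3 came close to KYSE450 library 1. CENPA fell by 0.45 (limma, adjusted p = 0.0117), a call lost without KYSE450 library 2 (limma, adjusted p = 0.0501) and in 2 further settings with adjusted p up to 0.0694. NDC80, which binds microtubules at the outer kinetochore, had counts of 5350, 5241 and 5660 in KYSE450 and 3792, 3413 and 3901 in KEAP1null-KYSE450. The lines did not overlap, and it fell by 0.55 (limma, adjusted p = 0.000371). NUF2, its partner in the same complex, fell by 0.99 (limma, adjusted p = 7.30e-05), and CENPF fell by 0.67.

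All 4 members of the chromosomal passenger complex fell, beside 25.5% of all tested genes (limma). AURKB, its kinase, had 7990, 8470 and 8976 normalized counts in KYSE450 and 4517, 4040 and 4971 in KEAP1null-KYSE450, each of the latter below each of the former. AURKB fell by 0.91 on the log2 scale (standard error 0.10; limma, adjusted p = 1.28e-05). The other 3, the scaffold INCENP, survivin (BIRC5) and borealin (CDCA8), fell by 0.56, 0.46 and 0.46. INCENP missed the threshold when the variance trend was left out (limma, adjusted p = 0.0555). BIRC5 missed it after quantile normalization (limma, adjusted p = 0.0522) and with edgeR on recovered reads (adjusted p = 0.0505).

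Among the 5 genes of the APC/C and chromatid separation, all fell, where 25.5% of all tested genes did (limma). CDC20, the activator of the APC/C that the checkpoint holds back, had 16603, 16554 and 17873 normalized counts in KYSE450 and 8570, 7801 and 8922 in KEAP1null-KYSE450. The spread within each line was small beside the gap, and it fell by 1.01 on the log2 scale (standard error 0.09; limma, adjusted p = 2.52e-06). PTTG1 encodes securin, the inhibitor of separase. Its counts were 11906, 13506 and 13511 in KYSE450 and 6075, 6704 and 7655 in KEAP1null-KYSE450. PTTG1 fell by 0.93 (standard error 0.11; limma, adjusted p = 1.61e-05) in all 3 libraries. ESPL1, separase itself, had 3737, 2828 and 2568 in KYSE450 and 1724, 1537 and 1592 in KEAP1null-KYSE450. KYSE450 library 1 stood above the other libraries of its line, and without it ESPL1 still fell. In the fit with all libraries it fell by 0.89 (standard error 0.13; limma, adjusted p = 0.00013). UBE2C, an E2 enzyme of the APC/C, fell by 0.59 (limma, adjusted p = 0.00021). CDCA3, which triggers degradation of WEE1, fell by 0.32 (limma, adjusted p = 0.0119), a call lost in 4 of 15 settings, among them the one without KEAP1null-KYSE450 library 2 (limma, adjusted p = 0.0619).

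Spindle proteins and motors formed the widest role, with 9 of 11 genes lower (81.8%, beside 25.5% of all tested genes by limma). TPX2, the activator of AURKA on spindle microtubules, had 20228, 17621 and 17536 normalized counts in KYSE450 and 10159, 8199 and 8778 in KEAP1null-KYSE450. It fell by 1.03 on the log2 scale (standard error 0.11; limma, adjusted p = 7.11e-06), with no overlap. KIF2C, a kinesin that takes microtubules apart at centromeres, had 8763, 7796 and 7594 in KYSE450 and 4236, 3694 and 4136 in KEAP1null-KYSE450. It fell by 1.00 (standard error 0.10; limma, adjusted p = 4.53e-06), also without overlap. KIF11, the kinesin that pushes spindle poles apart, showed 11990, 10619 and 10498 in KYSE450 and 6399, 5286 and 5355 in KEAP1null-KYSE450. The lines did not overlap, and KIF11 fell by 0.96 (standard error 0.10; limma, adjusted p = 1.05e-05). The chromokinesin KIF4A, the plus-end motor KIF18A, DLGAP5, NUSAP1, ASPM and CKAP2L fell by between 0.26 and 0.66. ASPM was not called by edgeR (adjusted p = 0.141) or DESeq2 (adjusted p = 0.112) on recovered reads. Of these, CKAP2L had the smallest fall (limma, adjusted p = 0.0393) and lost its call in 10 of 15 settings, with adjusted p up to 0.332. They included the settings without KYSE450 library 2 or 3 or KEAP1null-KYSE450 library 2 or 3, where it lay between 0.0926 and 0.126 (limma).

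HMMR, a spindle protein that also binds hyaluronan, had 17158, 22654 and 23808 normalized counts in KYSE450 and 15126, 17997 and 17745 in KEAP1null-KYSE450. KYSE450 library 1 lay inside the range of the other line. Its log2 fold change was -0.31 (limma, adjusted p = 0.0584), and it was -0.46 without KYSE450 library 1 (limma, adjusted p = 0.00186). After quantile normalization it was -0.12 (limma, adjusted p = 0.508). CKAP2, which stabilizes spindle microtubules, had a log2 fold change of 0.04 (limma, adjusted p = 0.754) and was called in none of the 15 other settings. After quantile normalization it was 0.22 (limma, adjusted p = 0.0541).

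All 7 cytokinesis genes fell, beside 25.5% of all tested genes (limma). ANLN encodes anillin, which organizes the contractile ring. With 17315, 16870 and 17386 normalized counts in KYSE450 and 8211, 7287 and 7128 in KEAP1null-KYSE450, it had the largest fall of the 50 genes. The libraries of each line lay close together, and it fell by 1.19 on the log2 scale (standard error 0.09; limma, adjusted p = 5.39e-07). KIF20A, a kinesin of the central spindle, had 7095, 7081 and 7170 in KYSE450 and 3893, 3519 and 3806 in KEAP1null-KYSE450. It fell by 0.93 (standard error 0.09; limma, adjusted p = 3.45e-06), without overlap. KIF14, KIF20B, KIF23 and the RhoA exchange factor ECT2 fell by between 0.57 and 0.89. PRC1, which bundles the midzone microtubules, had 174, 158 and 150.1 normalized counts in KYSE450 and 101, 107 and 89.8 in KEAP1null-KYSE450. It fell by 0.69 (standard error 0.20; limma, adjusted p = 0.0109), and the call was lost with edgeR (adjusted p = 0.118) and DESeq2 (adjusted p = 0.157) on recovered reads.

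The level of PRC1 is uncertain. In the gencode v44 annotation of hg38, other genes cover 61.9% of its exon length, most of it by the same-strand readthrough gene ENSG00000284946, which had 196, 234 and 334 normalized counts in KYSE450 and 161, 206 and 242 in KEAP1null-KYSE450. For NUSAP1, which holds microtubules to chromosomes, 86.8% of the exon length is covered, chiefly by ENSG00000285920, listed at 0 in all 6 libraries. How the counting treated reads shared by overlapping genes is not stated. The methods name RefSeq as the annotation, while the matrix carries Ensembl identifiers, so these overlaps may differ from those in the annotation that was counted. Per kilobase of exon, PRC1 had the lowest KYSE450 mean of the 50 genes, 29.1 normalized counts, and CCNB1 the highest, 10450. Apart from these, 9 of the 50 genes had between 5% and 15.9% of their exon length covered by another gene, and 33 had none.

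The chromosome structure genes MKI67 and TOP2A both fell, where 25.5% of all tested genes did (limma). MKI67, which coats mitotic chromosomes and encodes the Ki-67 antigen, had 21783, 15166 and 15003 normalized counts in KYSE450 and 8317, 8440 and 7293 in KEAP1null-KYSE450. KYSE450 library 1 was far above the others of its line, and every KEAP1null-KYSE450 library was below all of them. MKI67 fell by 1.09 on the log2 scale (standard error 0.14; limma, adjusted p = 3.51e-05). TOP2A, the topoisomerase that untangles sister chromatids, had 47021, 47559 and 46459 in KYSE450 and 34715, 30768 and 30440 in KEAP1null-KYSE450. It fell by 0.56 (standard error 0.10; limma, adjusted p = 0.000513), without overlap, and edgeR on recovered reads gave an adjusted p of 0.0597.

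**Figure D3:**
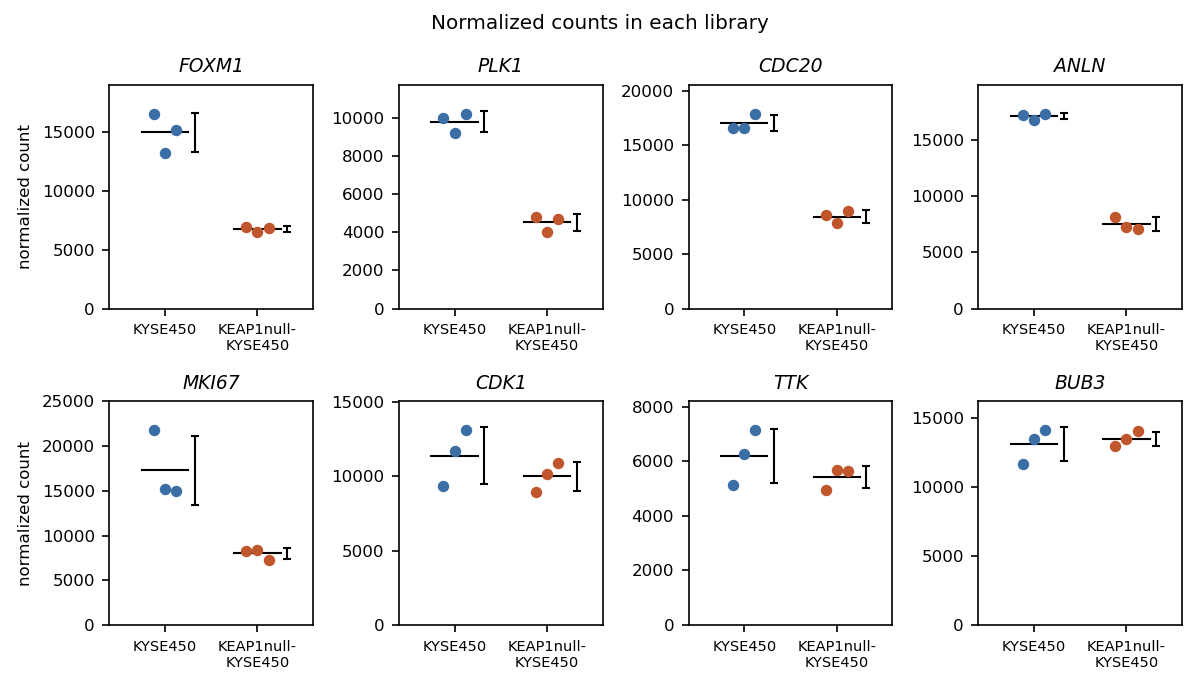
Points give the normalized count of 8 genes in each library, lines the mean of a line and bars its SD (n = 3), on axes that start at 0. For FOXM1, PLK1, CDC20, ANLN and MKI67 the lines stand apart, and for CDK1, TTK and BUB3 they overlap.

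Within a line the libraries differed by exon length. Spearman's rho between exon length and a library's deviation from the mean of its line, across the 50 genes, which are not independent replicates, was 0.45, -0.31 and -0.40 in KYSE450 and 0.46, 0.09 and -0.65 in KEAP1null-KYSE450. The same direction was seen over the longest 4106 genes among those averaging 100 normalized counts or more, whose median deviation in library 1 was 0.10 in KYSE450 and 0.07 in KEAP1null-KYSE450. The shortest 4107 genes had -0.04 and -0.03 there. Library 1 of KYSE450 was the lowest of its line in 24 of the 50 genes and the highest in 17. CDK1, CDC25C, TTK and HMMR are 4 of those in which it was the lowest, and they were called lower when it was left out, which gave 47 of the 50 genes lower. The fold change between the lines itself did not follow length: the 25 shorter genes had a median of -0.59, the 25 longer ones -0.66, and rho was -0.05. The part of RNA quality in these library differences was not tested.

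**Figure D4:**
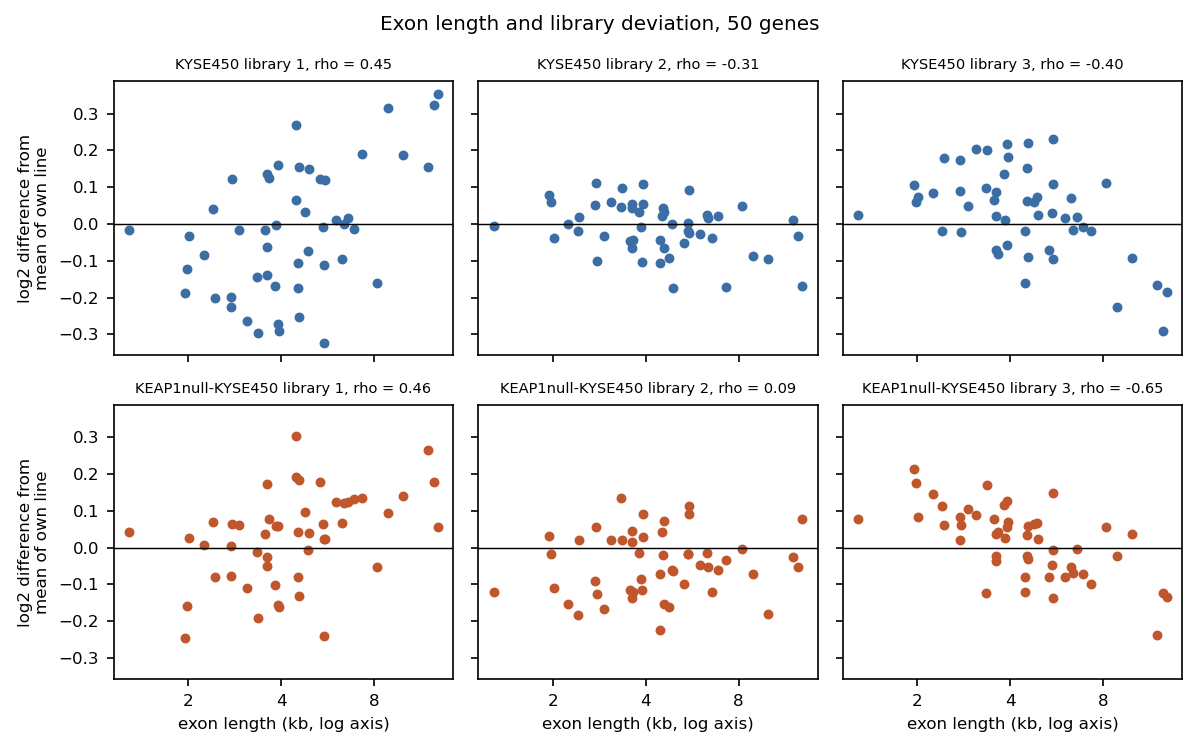
For each library, exon length in kilobases (log axis) is plotted against the log2 difference of each of the 50 genes from the mean of its own line, with Spearman's rho above each panel. Points slope upward in the library numbered 1 of each line and downward in that numbered 3, and the numbers only give column order.

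The 50 genes lie on 18 chromosomes, with at most 8 on 1 of them. On the 9 chromosomes with at least 3 of the genes, the median log2 fold change lay between -0.99 and -0.44.

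Other genes of the same processes were lower as well, in lists written by function with earlier results of these data known. Of 34 other kinetochore genes, 33 were tested, 24 fell and 2 rose (limma, adjusted p under 0.05), with a median log2 fold change of -0.41. That is 72.7% lower and 6.06% higher, beside 25.5% and 24.3% of all tested genes. On recovered reads edgeR called 13 of them lower and DESeq2 17, where 14.8% and 16.4% of all tested genes were. KNL1, the scaffold on which BUB1 docks, had 3680, 3509 and 3757 normalized counts in KYSE450 and 1924, 1983 and 1636 in KEAP1null-KYSE450 and fell by 0.99. CENPI, SGO2 and SKA3 fell by between 0.76 and 0.86. NSL1 rose by 0.42 (limma, adjusted p = 0.0218), a call lost in 6 of 15 settings, and CENPT rose by 0.31 (limma, adjusted p = 0.0442), a call lost in 8 of 15. The settings that ended the call of NSL1 included those without KYSE450 library 1 or KEAP1null-KYSE450 library 2 or 3 (limma, adjusted p between 0.0562 and 0.0972). For CENPT they included those without KYSE450 library 1 or 2 or KEAP1null-KYSE450 library 2 or 3 (limma, adjusted p between 0.07 and 0.165). Of 28 other spindle and cytokinesis genes, 27 were tested and 20 fell (74.1%), with a median of -0.56. CEP55, which brings the abscission machinery to the midbody, had 11107, 11416 and 11870 in KYSE450 and 3636, 3231 and 3393 in KEAP1null-KYSE450. CEP55 fell by 1.75 (limma, adjusted p = 1.16e-08), more than any of the 50 genes. KIFC1, a minus-end motor, fell by 1.48, the microtubule polymerase CKAP5 by 1.02 and SPAG5 by 0.92.

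Condensin and cohesin genes fell in 15 of 19 cases (78.9%, beside 25.5% of all tested genes by limma), with a median of -0.43. By edgeR on recovered reads 8 were lower, and by DESeq2 10, beside 14.8% and 16.4% of all tested genes. The condensin subunit NCAPG had 8996, 9062 and 9741 normalized counts in KYSE450 and 5492, 4825 and 5033 in KEAP1null-KYSE450, and fell by 0.86. NCAPG2, NCAPH and SMC4 fell by between 0.70 and 0.80. In the list of mitotic entry control, 12 of 16 genes fell (75%) and 0 rose, where 25.5% and 24.3% of all tested genes did (limma). The median of this list was -0.49. CCNF, the F-box protein cyclin F, fell by 1.13, from 5878, 4864 and 5061 normalized counts in KYSE450 to 2558, 2228 and 2408 in KEAP1null-KYSE450. PKMYT1, a kinase that inhibits CDK1, fell by 1.10, GTSE1 by 0.79 and CDC25A by 0.76. Regulators of CDK1 with opposite action, the phosphatase CDC25B and the kinase PKMYT1, were thus both lower.

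Of 17 subunits and regulators of the APC/C, 5 fell (29.4%) and 3 rose (17.6%), where 25.5% and 24.3% of all tested genes did (limma), and the median was -0.07. edgeR and DESeq2 on recovered reads each called 3 lower (17.6%), where 14.8% and 16.4% of all tested genes were, so the share of lower calls lies near that of all genes in each test. UBE2S, an E2 enzyme of the complex, had 11273, 11599 and 11712 normalized counts in KYSE450 and 5407, 5816 and 7387 in KEAP1null-KYSE450 and fell by 0.91. FZR1, the activator of the APC/C after mitosis, fell by 0.48, and its inhibitor FBXO5 fell by 0.46. ANAPC4 fell by 0.35 (limma, adjusted p = 0.00778), a call lost with edgeR (adjusted p = 0.0954) and DESeq2 (adjusted p = 0.0719) on recovered reads. ANAPC16 had 4683, 5786 and 6126 in KYSE450 and 8113, 9803 and 10196 in KEAP1null-KYSE450 and rose by 0.76 (limma, adjusted p = 0.000237). ANAPC13 rose by 0.52 and ANAPC15 by 0.47.

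**Figure D5:**
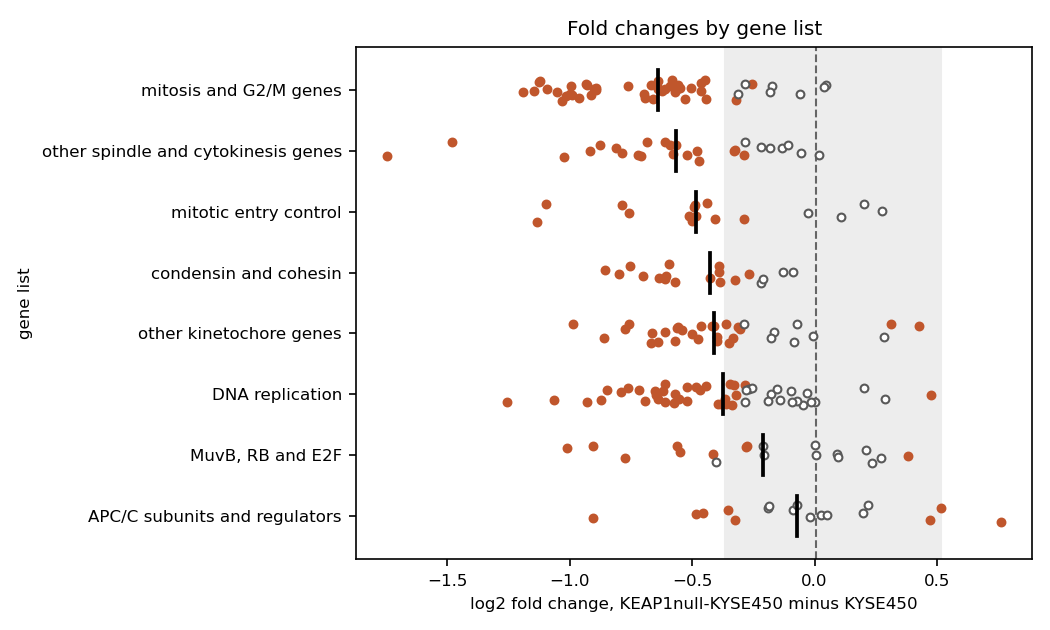
Each point is a gene's log2 fold change, KEAP1null-KYSE450 minus KYSE450, by gene list, filled where the adjusted p was under 0.05 and open where it was not. Black lines are the medians of the 8 lists shown, -0.64 for the mitosis and G2/M genes and -0.07 for the APC/C list, the shaded band runs between the quartiles of all tested genes and the dashed line their median.

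Of 19 genes of MuvB, the RB family and E2F, 8 fell (42.1%) and 1 rose (5.26%), beside 25.5% and 24.3% of all tested genes (limma), with a median of -0.21. E2F2 fell by 1.01, RBL1 (p107) by 0.91, the repressor E2F8 by 0.77 and E2F1 by 0.56. RBL2 (p130), the pocket protein of resting cells, had 6497, 6683 and 6030 normalized counts in KYSE450 and 8663, 8487 and 7897 in KEAP1null-KYSE450. It rose by 0.38 (limma, adjusted p = 0.00363), with no overlap between the lines. Among the MuvB subunits LIN9, LIN37, LIN52, LIN54 and RBBP4, none passed the test (limma), with log2 fold changes between -0.21 and 0.24.

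DNA replication genes, which peak earlier in the cycle, fell in 32 of 50 cases (64%) and rose in 1 (2%), beside 25.5% and 24.3% of all tested genes (limma), with a median of -0.37. Their distance from the mitosis genes was not tested. CLSPN, a mediator of the replication checkpoint, had 3507, 2773 and 2988 normalized counts in KYSE450 and 1390, 1199 and 1276 in KEAP1null-KYSE450 and fell by 1.26. The ribonucleotide reductase subunit RRM1 fell by 1.06, the helicase subunit MCM2 by 0.93 and UHRF1 by 0.87. RPA3 rose by 0.48 (limma, adjusted p = 0.017), a call lost in 5 of 15 settings, among them those without KEAP1null-KYSE450 library 2 or 3 (limma, adjusted p = 0.0716 and 0.0873).

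Of 13 cyclin D, CDK and CDK inhibitor genes, 12 were tested, 8 fell (66.7%) and 1 rose (8.33%), beside 25.5% and 24.3% of all tested genes (limma, adjusted p under 0.05), with a median log2 fold change of -0.66. edgeR and DESeq2 each called 5 of them lower on recovered reads, beside 14.8% and 16.4% of all tested genes. CCND2, a D-type cyclin, had 1541, 1011 and 1173 normalized counts in KYSE450 and 117, 51 and 65.6 in KEAP1null-KYSE450. It fell by 4.04 (standard error 0.26; limma, adjusted p = 1.06e-07), and CDK6, a partner of D-type cyclins, fell by 1.03. CDKN1A encodes p21, an inhibitor of CDKs that p53 induces. Its counts were 444, 377 and 363 in KYSE450 and 178, 177 and 150.3 in KEAP1null-KYSE450, without overlap. CDKN1A fell by 1.22 (standard error 0.16; limma, adjusted p = 5.98e-05), in the same direction as the mitosis genes. CDKN1C (p57), a low transcript with a KYSE450 mean of 55.2 normalized counts, fell by 1.31 (limma, adjusted p = 0.0159), a call lost in 4 of 14 settings, among them those without KYSE450 library 2 or KEAP1null-KYSE450 library 2 (limma, adjusted p = 0.0761 and 0.0637). CDKN2B (p15), an inhibitor of CDK4 and CDK6, had 527, 386 and 394 in KYSE450 and 845, 647 and 744 in KEAP1null-KYSE450 and rose by 0.78 (standard error 0.16; limma, adjusted p = 0.00126), with each KEAP1null-KYSE450 library above each KYSE450 library. CDKN2A was listed at 0 in all 6 libraries.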

How the data were processed

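RNA of 3 KYSE450 and 3 KEAP1null-KYSE450 libraries was analysed from the deposited matrix, whose values are a signal per gene and library that the authors made by dividing read counts by a factor per library. Their methods and the submitters' processing notes name FastQC 0.11.5, cutadapt 1.12, STAR 2.6.90c with hg38, and featureCounts 1.5.1. The notes also list mm10, which has no part here.

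Lines were compared with limma 3.58.1 (R 4.3.3; lmFit, eBayes with trend, two-sided) of log2 values after adding 1 to each normalized count, for genes averaging 10 or more. This scale understates the change of low genes. The Benjamini-Hochberg adjustment ran over 16701 genes. Whole reads were recovered for KYSE450 libraries 1 and 3 and KEAP1null-KYSE450 libraries 1 and 2 (100% of values within 0.1 of a whole number), and there edgeR 4.0.16 and DESeq2 1.42.0 called 5386 and 5349 genes. The other 2 libraries gave whole reads too, but were not used for count tests because 1 read is worth close to 1 normalized count there (1.0108 and 1.0089). KEAP1null-KYSE450 library 2 was used although its value, 1.0194, is not far from these. The count tests thus compared 2 libraries with 2. The reads came to between 53027359 and 61543442 per library, and 3 reads correspond to between 2.77 and 3.21 normalized counts, for counting error only. Tests were tried on simulated data.

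The 50 genes and the other lists were chosen with earlier results of these data known. Every one of the 50 genes is accounted for. Values in every library are given for leads of each role, for genes past both thresholds, and for the 6 largest changes. From each other list up to 4 called genes per direction with the largest change are named, and KEAP1, NQO1 and CDKN1A always. HMMR, BUB3 and other genes named beyond this rule were added after their values were seen. Promoters come from RefSeq, and exon lengths and overlaps from gencode v44, in which 99.6% of the tested identifiers were found.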

Additional observations from a re-analysis of the deposited data

How the results depend on the processing

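Over 15 other settings, between 35 and 47 of the 50 genes fell and 0 rose, and 33 fell in every one. Of all genes tested in those settings, between 14.2% and 31.9% fell and between 14.4% and 25.6% rose. Leaving out 1 library at a time gave 41 to 47 genes lower, where 19.4% to 25.3% of all tested genes were, and 6 to 12 past both thresholds. The median log2 fold change of the 50 then lay between -0.67 and -0.60. The other cell cycle lists held 103 to 130 lower genes (124 with all libraries). Calls among all genes numbered 6407 to 8051 (8311 with all libraries). After quantile normalization 1 gene, PRC1, passed both thresholds and the median was -0.48. A mean of at least 100 left 875 genes higher past both thresholds, with fewer genes tested. edgeR on the recovered reads of 4 libraries called 5386 genes, 2472 of them lower (14.8% of all tested genes), and 82 lower genes in the other lists. DESeq2 on the same reads called 5349 genes, 2617 higher and 2732 lower. Both used fewer libraries. CDKN1C and CDH5 have no value at a mean of at least 100.

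The sign changed only for genes that were not called. After quantile normalization CDK1 was at 0.0189, MAD2L1 at 0.0874 and KEAP1 at 0.1351, BUB3 was at 0.24 and CKAP2 at 0.2229, not called and with the same sign, and KEAP1 was at 0.0156 after rescaling to the same total. Leaving out 1 library gave ranges of -0.0345 to 0.1009 for BUB3, -0.2211 to 0.0604 for MAD2L1, -0.0158 to 0.069 for CKAP2 and -0.0725 to 0.0403 for KEAP1. The cause was not tested.

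No paired analysis was possible because the columns carry no replicate number. With 3 libraries per line, 1 clone and bulk RNA, the values do not separate clone, culture and cell cycle distribution. Depth limits few of the 50 genes, since the lowest, PRC1, lies far above the floor of 3 reads.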
